A study of Homo sapiens with 15 samples.

Results

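The noncoding genes that carry small nucleolar RNAs (snoRNAs) in their introns were followed through RNA immunoprecipitation with antibodies against Brg1 and Sfpq in prostate cancer cells. The 10 genes were chosen by name, but with earlier results of these data known: SNHG1, SNHG3, SNHG5, SNHG6, SNHG7, SNHG8, SNHG12, SNHG15, GAS5 and ZFAS1. They are 10 of the 15990 genes with a row in either deposited table, and they hold 15 of 22542 rows in the 22Rv1 table and 16 of 22169 rows in the LNCaP table. A gene can have a plain row, named by its symbol, and a row with the suffix .primary, which is read here as the unspliced precursor that still holds the introns. What the suffix stands for is not given in the sources used here. GAS5, SNHG1, SNHG3, SNHG7, SNHG15 and ZFAS1 had both rows in both tables. SNHG5, SNHG8 and SNHG12 had only the plain row in both tables, and SNHG6 had only the primary row in LNCaP and no row in 22Rv1.

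A snoRNA host gene makes 2 products from a single transcript. The snoRNAs are cut out of the removed introns and go to the nucleolus or to Cajal bodies, where they guide the modification or the processing of ribosomal and small nuclear RNA. The exons are joined into a spliced RNA that is exported, and in several hosts, GAS5 among them, that RNA is short-lived because ribosomes on it trigger nonsense-mediated decay. Many hosts start transcription at a pyrimidine tract that begins with C, the terminal oligopyrimidine start that they share with ribosomal protein genes. Several members, including SNHG1, GAS5 and ZFAS1, are studied as cancer-associated long noncoding RNAs.

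The study concerned SWI/SNF and the long noncoding RNA SCHLAP1 in 22Rv1 and LNCaP, established human prostate cancer lines obtained from a cell bank. Cells were fixed in formaldehyde, and RNA was sequenced after immunoprecipitation with an antibody against Brg1, encoded by SMARCA4 and the motor subunit of SWI/SNF, which moves nucleosomes, or, in 22Rv1 only, against Sfpq, an RNA-binding protein of the splicing machinery and of paraspeckles. Non-specific IgG served as the background and Input RNA, taken without an antibody, as the reference. The groups were 2 libraries each of 22Rv1 Brg1, 22Rv1 Sfpq, 22Rv1 Input, LNCaP Brg1, LNCaP IgG and LNCaP Input, and 3 of 22Rv1 IgG, with no other treatment or genotype stated. The labels do not say that replicates came from separate cultures, so p-values measure the spread between these libraries, which may be technical.

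Annotation of the human genome (RefSeq, GRCh38.p14) places 11 snoRNAs inside GAS5, 9 inside SNHG1, 4 inside SNHG12, 3 inside ZFAS1, 2 each inside SNHG3, SNHG5 and SNHG7, and 1 each inside SNHG6, SNHG8 and SNHG15. Most of those in GAS5 and SNHG1 belong to the box C/D family (SNORD), which guides ribose methylation. The guests of SNHG3, SNHG7, SNHG8 and SNHG15 belong to the box H/ACA family (SNORA), which guides pseudouridylation or, in the case of SNORA73, takes part in the cleavage of ribosomal precursor RNA. Some members share bases with other genes, and the sources used here do not state whether reads were assigned by strand or how shared bases were counted. SNHG3 shares 4850 bases with RCC1 on the same strand, SNHG7 lies wholly within the predicted coding gene LOC124900276 on the same strand, SNHG6 lies within MCMDC2, and GAS5 shares 964 bases with ZBTB37 on the opposite strand. The values of the SNHG3, SNHG6 and SNHG7 rows, and of GAS5 to the extent of that overlap, are therefore uncertain in what they count.

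The start sites of the 8 members in the promoter table are printed because the pyrimidine start is a known feature of such hosts. Each line gives 10 bases before the annotated start and the first 20 bases of the transcript, from RefSeq (GRCh38.p14), and capitals mark the unbroken run of C and T that begins at the start. The table of promoters used here gives a single start per gene. SNHG5 (chr6:85678714-85678743, minus strand), SNHG12 (chr1:28581854-28581883, minus strand) and ZFAS1 (chr20:49278632-49278661, plus strand) begin with C and a run of at least 5 pyrimidines. SNHG7 (chr9:136728165-136728194, minus strand), SNHG1 (chr11:62855866-62855895, minus strand) and SNHG8 (chr4:118278752-118278781, plus strand) begin with C and a shorter run. GAS5 (chr1:173869026-173869055, minus strand) begins with A at the start given in that table, and SNHG3 (chr1:28505933-28505962, plus strand) with G.
SNHG5: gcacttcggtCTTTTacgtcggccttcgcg
SNHG12: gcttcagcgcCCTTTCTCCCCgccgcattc
ZFAS1: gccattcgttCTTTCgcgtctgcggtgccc
SNHG7: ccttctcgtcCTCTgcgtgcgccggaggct
SNHG1: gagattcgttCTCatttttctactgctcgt
SNHG8: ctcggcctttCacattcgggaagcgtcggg
GAS5: tcatgaattcagatgtgtttattttggagc
SNHG3: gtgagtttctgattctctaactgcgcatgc
Of these 8 members, 3 began with C and such a run of 5 or more, against 4.07% of all 35116 promoters in it. The run is a description of these letters and says nothing on translation in these cells. Several annotated genes have more than 1 start, and the other starts were not examined. The starts used for SNHG12 and ZFAS1 lie inside the annotated spans of these genes, chr1:28578538-28582983 and chr20:49278178-49289260.

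The depth per library, as reads recovered from the deposited values, was 490879 to 47871438 for 22Rv1 libraries and 22184 to 7506724 for LNCaP libraries, with the IgG libraries the smallest in both lines (490879 to 4424105 reads in 22Rv1, and 22184 and 46297 in LNCaP). Values below are given as RPM, reads per 1000000 recovered reads, the share of a library's recovered reads that fell on a row. The share of all reads on primary rows differed between groups, from 27.5% and 33.4% in 22Rv1 Sfpq and 34.8% and 38.2% in 22Rv1 Input to 62.7% and 65.7% in 22Rv1 Brg1, so plain and primary rows are each set beside the median of their own kind. Of 8 prostate luminal markers, 6 had a row in 22Rv1 and 8 in LNCaP, and their summed share in Input was 222 and 229.8 RPM in 22Rv1 and 4197 and 4315 RPM in LNCaP. At most 1 of 4 leukocyte, 1 of 4 fibroblast and 1 of 4 endothelial markers had a row in either table.

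The 9 plain rows together held a smaller share of the reads in both precipitates than in Input. In 22Rv1 their summed share was 384 and 388 RPM in Input, 145 and 154 RPM in Brg1, and 123 and 114 RPM in Sfpq. The IgG libraries A, B and C gave 209, 106 and 297 RPM, which are shares of far smaller libraries and not amounts. In the authors' scaled values, GAS5 was at 1451 and 1252 in Brg1 and at 8.64, 5.89 and 26.3 in IgG A, B and C. In LNCaP the sum was 371 and 364 RPM in Input and 171 and 157 RPM in Brg1. Both Brg1 and both Sfpq libraries lay below both Input libraries of their line, and the 22Rv1 IgG libraries ran from below the Sfpq values to most of the way to Input. In sums over the primary rows the gap was smaller: 162 and 157 RPM in 22Rv1 Input, 116 and 119.6 RPM in Brg1, 76.9 and 77.3 RPM in Sfpq, and 77.3, 44.5 and 122 RPM in IgG A, B and C. LNCaP Input held 298 and 245 RPM on primary rows and LNCaP Brg1 174 and 198 RPM. Of these sums, ZFAS1.primary held 69.4 and 69.7 RPM in 22Rv1 Input and 173 and 149 RPM in LNCaP Input.

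**Figure D1:**
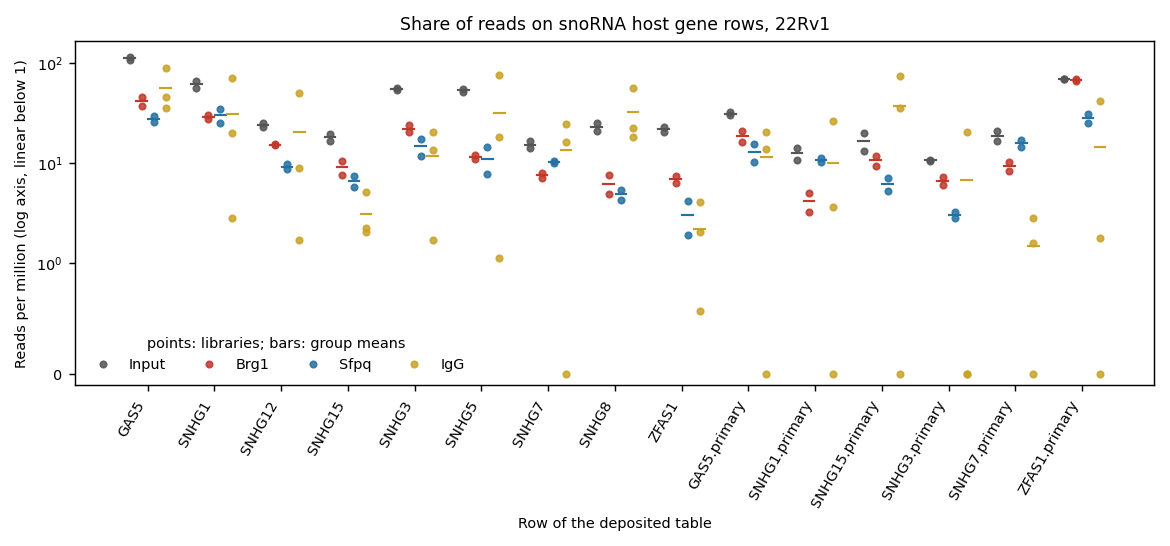
Share of each 22Rv1 library's recovered reads on the 15 member rows (y axis, RPM on a log axis that is linear below 1; x axis, rows). Points are libraries and bars group means for Input (n = 2), Brg1 (n = 2), Sfpq (n = 2) and IgG (n = 3). Brg1 and Sfpq points lie below the Input points in all 9 plain rows, and the IgG points scatter over a range that reaches 0 in several rows.

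Comparison of Brg1 with Input asks which member RNAs came down with the remodelling complex in a share unlike that of the starting RNA. In 22Rv1, all 9 plain rows of snoRNA host genes fell in Brg1 (limma on log2(RPM + 0.5), Benjamini-Hochberg adjusted over all rows, adjusted p under 0.05), with log2 changes from -2.18 to -0.63 and a median of -1.31. Of all plain rows tested, 74.0% fell, with a median of -0.80, so a count of 9 of 9 lies near what most plain rows did.

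SNHG5, the host of SNORD50A and SNORD50B, was at 52.1 and 55.7 RPM in Input and at 12.1 and 11.0 RPM in Brg1. Its log2 change of -2.18 ± 0.24 (SE; limma adjusted p = 2.06e-06) was the largest of the members and lay at percentile 2.29 of all plain rows, counted from the most negative change. SNHG8, the host of SNORA24, went from 25.3 and 21.1 RPM in Input to 4.92 and 7.56 RPM in Brg1, a change of -1.84 ± 0.26 (SE; limma adjusted p = 2.6e-05). In both genes the Brg1 libraries stood well below the Input libraries, by more than the gap within either group.

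GAS5, named for its accumulation in growth-arrested cells, was at 117 and 108 RPM in Input and at 37.3 and 46.1 RPM in Brg1, a log2 change of -1.42 ± 0.16 (SE; limma adjusted p = 2.09e-06). The spliced ZFAS1 row, of the RNA named as the antisense transcript of ZNFX1, was at 22.9 and 20.7 RPM in Input and at 6.42 and 7.45 RPM in Brg1, a change of -1.59 ± 0.31 (SE; limma adjusted p = 0.000377). The other 5 plain rows changed by -1.31 (SNHG3), -1.07 (SNHG1), -0.97 (SNHG7), -0.96 (SNHG15) and -0.63 (SNHG12) on the log2 scale. SNHG12, at 22.9 and 25.4 RPM in Input and 15.4 RPM in both Brg1 libraries, was the smallest of these changes. Its call ended under TMM scaling (-0.40), DESeq2 (-0.46), edgeR (-0.41) and the deposited scaling (-1.07), and without Input replicate B (-0.56).

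On the primary rows, 3 of 6 members fell in 22Rv1 Brg1, against 9.48% of all primary rows, whose median change was 0.54. SNHG1.primary went from 10.9 and 14.3 RPM in Input to 5.07 and 3.23 RPM in Brg1, a log2 change of -1.51 ± 0.27 (SE; limma adjusted p = 0.000205). SNHG7.primary, which overlaps another annotated gene, went from 21.0 and 16.7 RPM to 8.29 and 10.3 RPM, a change of -0.98 ± 0.21 (SE; limma adjusted p = 0.000941). GAS5.primary went from 30.5 and 32.3 RPM to 16.5 and 21.0 RPM, a change of -0.74 ± 0.21 (SE; limma adjusted p = 0.00644), a call that ended without Brg1 replicate A (-0.57). SNHG3.primary and SNHG15.primary had changes of -0.65 and -0.59 and did not pass the test (limma adjusted p = 0.0527 and 0.0526). They did not pass under TMM scaling (-0.43 and -0.37, limma adjusted p = 0.201 and 0.223) or the deposited scaling (limma adjusted p = 0.111 and 0.0847). Both passed, for 5 of 6 primary rows, when Sfpq was left out of the fit (limma adjusted p = 0.027 and 0.0284), and both also passed with a pseudocount of 5 and without either Sfpq library.

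ZFAS1.primary was level: 69.4 and 69.7 RPM in Input against 69.9 and 67.1 RPM in Brg1. Its log2 change was -0.02 ± 0.15 (SE; limma adjusted p = 0.904), with overlapping groups, and the value was 0.21 under TMM scaling and in edgeR, 0.17 in DESeq2 and 0.0078 without Brg1 replicate B. The other 5 primary rows had lower values in both Brg1 libraries than in both Input libraries. None of the 6 primary rows passed the test in the upward direction.

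When the IgG libraries were added to the fit, 0 of 15 member rows passed in either 22Rv1 antibody against Input, where the estimate of the spread is then shared with IgG; with it only 13 rows of the whole table passed for Brg1 and 8 for Sfpq. The log2 changes themselves did not move in that fit. The IgG libraries were kept out of these contrasts because of their depth, a choice made with earlier results of these data known.

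Sfpq is the second protein precipitated from 22Rv1, and its contrast shares the Input libraries with that of Brg1. All 9 plain rows fell in Sfpq as well, with log2 changes from -2.73 to -0.55 and a median of -1.90. Among all plain rows 20.1% fell, and their median change was 0.22, on the other side of 0.

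The spliced ZFAS1 row had the largest member change, from 22.9 and 20.7 RPM in Input to 4.2 and 1.90 RPM in Sfpq. Its log2 change was -2.73 ± 0.31 (SE; limma adjusted p = 5.49e-06), at percentile 0.41 of all plain rows, and -1.75 with a pseudocount of 5. SNHG5 was at 14.6 and 7.75 RPM in Sfpq, a change of -2.29 ± 0.24 (SE; limma adjusted p = 2.9e-06), and SNHG8 at 4.34 and 5.44 RPM, a change of -2.14 ± 0.26 (SE; limma adjusted p = 1.09e-05). These 3 rows, and SNHG3 at -1.90 and GAS5 at -1.99, were the members whose share fell the most, and their Sfpq libraries lay below the Input libraries without overlap.

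GAS5 stood at 25.9 and 29.9 RPM in Sfpq and SNHG3 at 11.9 and 17.7 RPM, against 117 and 108 RPM and 56.9 and 54.3 RPM in Input. SNHG15 (-1.39), SNHG12 (-1.34) and SNHG1 (-1.03) changed less. SNHG7, at 10.5 and 10.1 RPM in Sfpq and 14.1 and 16.6 RPM in Input, changed by -0.55 ± 0.22 (SE; limma adjusted p = 0.0406). That call of SNHG7 was the weakest: it ended under TMM scaling (-0.41), DESeq2 (-0.36), edgeR (-0.42), the deposited scaling (-1.09) and the replicate block, and without Input replicate A (-0.66) or B (-0.44) or Sfpq replicate A (-0.58) or B (-0.52).

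On the primary rows of the members, 4 of 6 fell in Sfpq, against 50.7% of all primary rows, whose median was -0.54. SNHG3.primary fell from 10.8 and 10.6 RPM to 3.22 and 2.86 RPM, a log2 change of -1.66 ± 0.28 (SE; limma adjusted p = 0.000163) that was -0.97 with a pseudocount of 5. ZFAS1.primary, level in Brg1, was at 25.2 and 31.3 RPM in Sfpq, a change of -1.29 ± 0.15 (SE; limma adjusted p = 6.93e-06). SNHG15.primary (-1.33) and GAS5.primary (-1.28) also fell.

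SNHG1.primary and SNHG7.primary did not pass in Sfpq. SNHG1.primary was at 11.2 and 10.3 RPM against 10.9 and 14.3 RPM in Input, a log2 change of -0.21 ± 0.27 (SE; limma adjusted p = 0.531). SNHG7.primary was at 14.6 and 17.3 RPM against 21.0 and 16.7 RPM, a change of -0.23 ± 0.21 (SE; limma adjusted p = 0.358). Both overlapped the Input range. With 2 libraries against 2, the lack of a call does not show that the shares were equal.

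**Figure D2:**
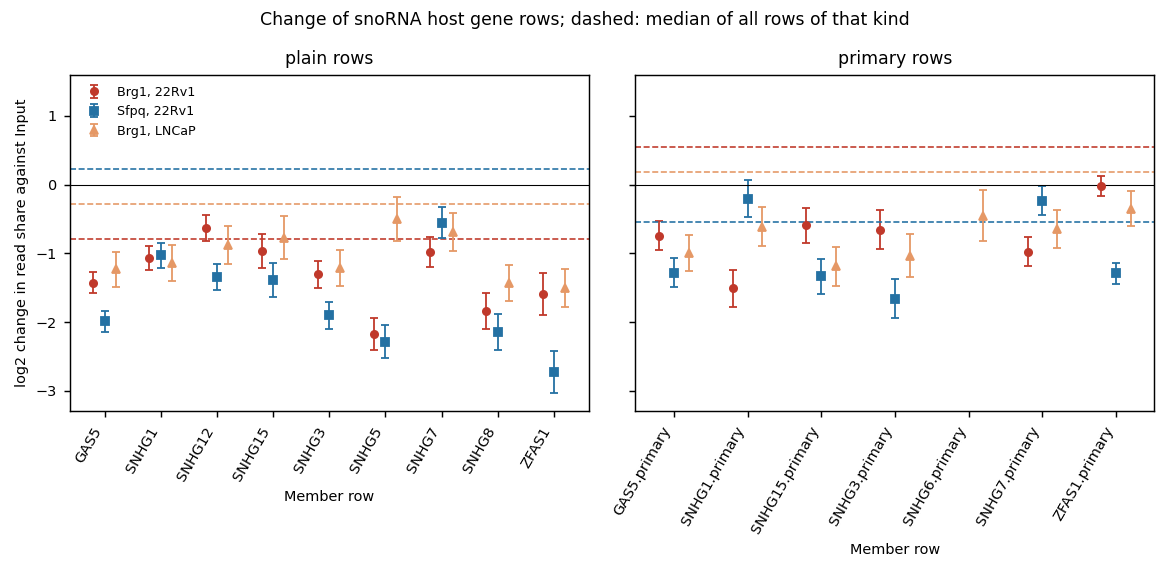
Log2 change in read share against Input for the plain rows (left) and the primary rows (right) of the members, for 22Rv1 Brg1, 22Rv1 Sfpq and LNCaP Brg1 (2 libraries a group; bars are the SE from limma). Dashed lines give the median change of all rows of that kind in the same contrast: the Sfpq plain points lie between -2.73 and -0.55, under an all-row median of 0.22.

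Non-specific IgG in 22Rv1 gave uneven values. GAS5 was at 45.7, 36.0 and 89.6 RPM in IgG A, B and C, from 202, 63 and 44 reads. SNHG5 was at 75.5, 1.14 and 18.3 RPM, from 334, 2 and 9 reads, and SNHG8 at 22.6, 57.1 and 18.3 RPM, from 100, 100 and 9 reads. The IgG libraries thus did not repeat each other within a row. The plain rows of SNHG1, SNHG5, SNHG7, SNHG8 and SNHG12 overlapped Input, as did SNHG1.primary, SNHG3.primary and SNHG15.primary. Against Input, 0 of 15 member rows passed in limma after Benjamini-Hochberg adjustment, where 8.07% of plain and 7.77% of primary rows fell. At an unadjusted p under 0.05, 4 plain and 2 primary rows of the members passed. By the other tools, DESeq2 called 3 and edgeR 0, and without IgG replicate A, B or C limma called 3, 5 and 6. The shares of all rows given here are those of the main fit. The count over all rows also changed when a library was left out, so these member counts are not read as particular to the members.

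The shares of Brg1 and Sfpq were not tested against IgG. The spliced ZFAS1 row had 18, 1 and 1 reads in IgG A, B and C, and ZFAS1.primary had 8, 73 and 0 reads. A count of 0 in the smallest 22Rv1 IgG library allows a share of up to 6.11 RPM, for counting error only.

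In LNCaP, Brg1 gave lower member shares than Input as in 22Rv1, at fewer reads per row. Of the 9 plain rows 7 fell (median log2 change -1.14), against 20.1% of all plain rows and their median of -0.29. Of the 7 primary rows 3 fell (median -0.65), against 8.19% of all primary rows and their median of 0.19. In every member row but SNHG1.primary both Brg1 libraries lay below both Input libraries.

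ZFAS1 was at 26.8 and 27.4 RPM in LNCaP Input and at 13.3 and 6.35 RPM in Brg1. Its log2 change was -1.50 ± 0.27 (SE; limma adjusted p = 1.8e-06), and it was -0.996 without Brg1 replicate B. SNHG8 went from 43.0 and 39.6 RPM to 18.1 and 12.3 RPM, a change of -1.44 ± 0.26 (SE; limma adjusted p = 2.31e-06). These 2 rows had the largest plain changes of the members in LNCaP.

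GAS5 was at 85.9 RPM in both LNCaP Input libraries and at 38.2 and 34.5 RPM in Brg1, a change of -1.23 ± 0.26 (SE; limma adjusted p = 4.74e-05). SNHG3, at 101 and 95.8 RPM in Input, was at 44.3 and 39.8 RPM in Brg1, a change of -1.22 ± 0.26 (SE; limma adjusted p = 5.97e-05). SNHG1 (-1.14), SNHG12 (-0.88) and SNHG7 (-0.69, limma adjusted p = 0.0472) also fell. The call of SNHG7 ended in 10 of the alternatives, edgeR (-0.63), DESeq2 (-0.66) and TMM scaling (-0.61) among them.

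SNHG5 did not pass in LNCaP, where it was at 9.50 and 9.86 RPM in Input and 6.44 and 6.93 RPM in Brg1, from 67, 74, 41 and 48 reads. Its log2 change was -0.50 ± 0.32 (SE; limma adjusted p = 0.246), beside -2.18 in 22Rv1, and a test between the lines was left out, as each line has a table of its own. SNHG15 had a change of -0.77 ± 0.31 (SE; limma adjusted p = 0.0504). SNHG6.primary, the only row of SNHG6, was at 7.94 and 6.13 RPM in Input and 5.18 and 4.76 RPM in Brg1, a change of -0.45 ± 0.37 (SE; limma adjusted p = 0.381).

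Among primary rows in LNCaP, SNHG15.primary went from 19.0 and 16.8 RPM to 9.58 and 5.92 RPM, a log2 change of -1.19 ± 0.29 (SE; limma adjusted p = 0.000546). SNHG3.primary changed by -1.03 and GAS5.primary by -0.99. The SNHG3.primary call ended without Brg1 replicate A (-0.68) and in DESeq2 (-0.98). ZFAS1.primary was at 173 and 149 RPM in Input and at 114 and 139 RPM in Brg1, a change of -0.35 ± 0.26 (SE; limma adjusted p = 0.314).

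The LNCaP calls depended on both Input libraries and on the model fitted. In place of 10 member rows, 2 were called without Input replicate A and 2 without Input replicate B, 3 with the replicate letter as a block, and 0 with the IgG libraries in the fit. The log2 changes of the members kept their sign in each of these. The loss of calls was not particular to the members. Over the whole LNCaP table, 5962 rows were called in the main fit, 1393 with that block and 15 with the IgG libraries in the fit. Under the deposited scaling all 16 rows fell, where the median of all rows of the table was -1.46 in place of -0.09.

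**Figure D3:**
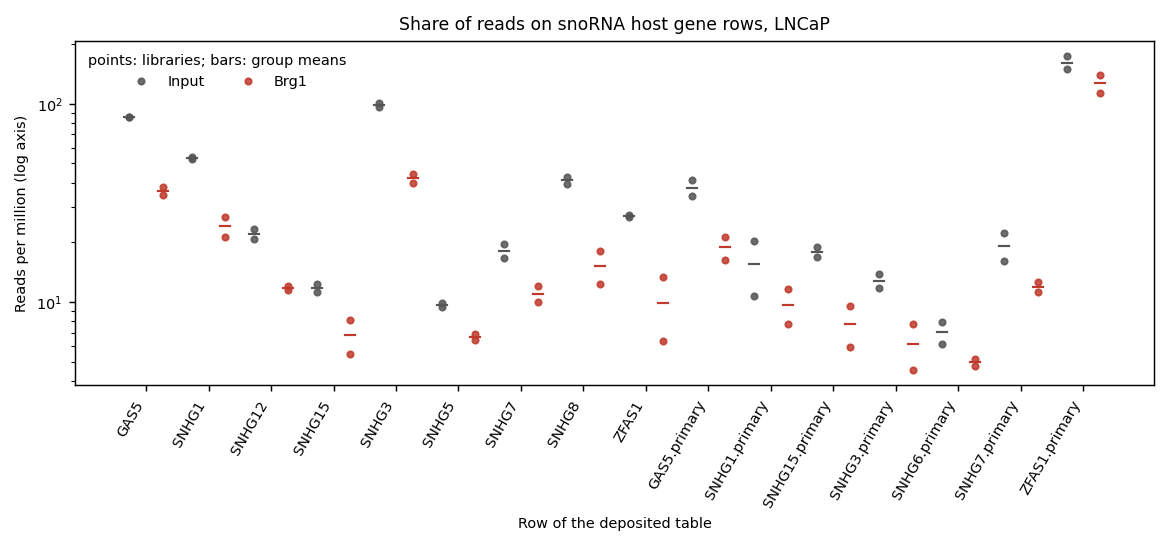
Share of each LNCaP library's recovered reads on the 16 member rows (y axis, RPM, log axis; x axis, rows). Points are libraries and bars group means for Input (n = 2) and Brg1 (n = 2); IgG is left out because 14 and 12 of its 16 values were 0. In ZFAS1.primary the libraries stand at 173 and 149 RPM in Input and 114 and 139 RPM in Brg1.

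LNCaP IgG held almost no member reads. Its libraries A and B had 1 and 2 reads on the 9 plain rows and 7 and 5 on the 7 primary rows, and 14 and 12 of 16 rows had none. At the Input share, GAS5 would have had 1.91 and 3.98 reads there, and ZFAS1.primary, with 7 and 1 reads, 3.57 and 7.46. A difference from Input was not detectable for most members at this depth. The limma fit on log shares called 7 plain and 4 primary rows lower, beside 53.7% of all plain and 34.9% of all primary rows, while DESeq2 called 1 and edgeR 2 member rows in all.

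The split between spliced and unspliced RNA of a gene does not depend on the scaling of a library. Of the reads on the 6 genes with both rows, 36.4% and 35.4% fell on primary rows in 22Rv1 Input, 50.8% and 49.9% in Brg1, and 44.7% and 46.0% in Sfpq. Over all genes with both rows the same share was 43.5% and 39.9% in Input, 67.4% and 64.7% in Brg1, and 27.4% and 33.5% in Sfpq. The members' share was thus higher than in Input in all 4 precipitates, while the share over all paired genes was higher in Brg1 and lower in Sfpq. Without ZFAS1, the member share was 26.3% and 24.8% in Input, 30.4% and 31.8% in Brg1, and 36.3% and 34.1% in Sfpq. In LNCaP the members gave 49.6% and 44.8% in Input and 55.6% and 60.6% in Brg1. Over all genes with both rows the LNCaP share was 50.4% and 43.6% in Input and 52.5% and 63.2% in Brg1, near that of the members. Without ZFAS1, the LNCaP member share was 30.3% and 25.2% in Input and 31.1% and 31.2% in Brg1.

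ZFAS1 had most of its reads on its primary row in every Input, Brg1 and Sfpq library. In 22Rv1 the share was 75.2% (95% Wilson interval 73.9 to 76.4) and 77.1% (74.9 to 79.2) in Input, 91.6% (90.6 to 92.5) and 90.01% (89.0 to 91.0) in Brg1, and 85.7% (80.3 to 89.8) and 94.3% (90.6 to 96.6) in Sfpq. In LNCaP it was 86.6% and 84.5% in Input and 89.5% and 95.6% in Brg1. Brg1 lay above Input in both lines, and Sfpq, precipitated in 22Rv1 only, lay above Input there. The intervals cover counting error only, since PCR copies of a molecule cannot be told from separate molecules here. Rows differ in length between genes, so these shares are compared between libraries and not between genes.

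**Figure D4:**
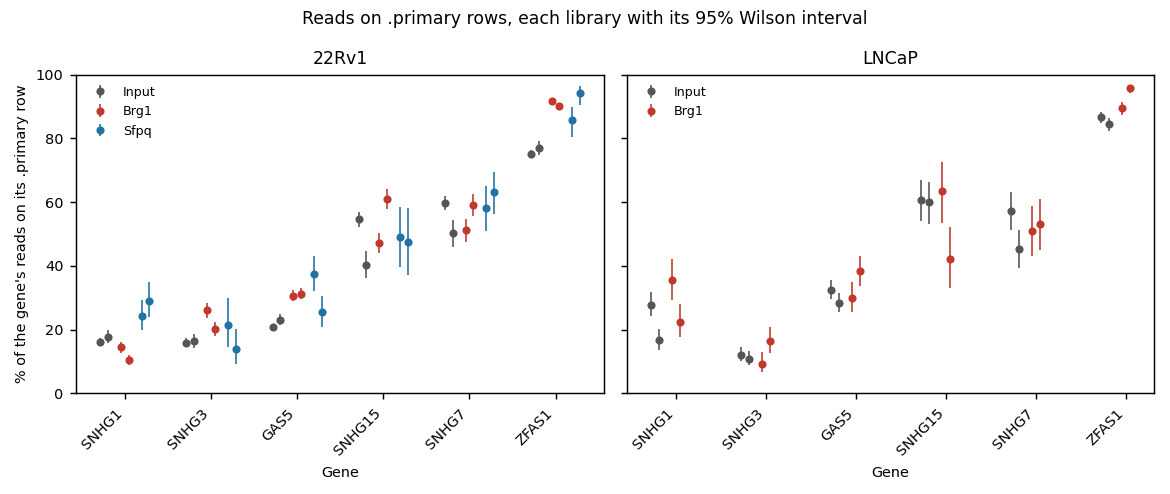
Percent of a gene's reads that fell on its primary row (y axis) for the 6 members with both rows (x axis) in 22Rv1 (left) and LNCaP (right); each point is a library with its 95% Wilson interval. ZFAS1 rises from 75.2% and 77.1% in 22Rv1 Input to 91.6% and 90.01% in Brg1, and the other members change less in that line. In LNCaP the mean goes from 85.5% to 92.6% for ZFAS1 and from 60.3% to 52.9% for SNHG15.

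The log2 ratio of primary to plain share was tested in each gene with both rows. In 22Rv1 Brg1 against Input, 1 of 6 members rose, against 65.8% of 8246 genes, whose median change was 1.13. That member was ZFAS1, with a change of 1.57 ± 0.37 (SE; limma adjusted p = 0.00141). GAS5 had 20.7% and 23.0% of its reads on the primary row in Input and 30.6% and 31.2% in Brg1, a change of 0.68 ± 0.32 that did not pass (SE; limma adjusted p = 0.0678). SNHG3, with 15.9% and 16.3% in Input and 26.0% and 20.1% in Brg1, changed by 0.65 ± 0.32 (SE; limma adjusted p = 0.0867).

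The ratios of SNHG15 (0.37), SNHG7 (-0.0029) and SNHG1 (-0.44) did not pass either. SNHG1 was the only member with a lower percentage in both Brg1 libraries, 14.4% and 10.4%, than in both Input libraries, 16.2% and 17.7%. Of the 6 members, 5 lay below the median change of all genes.

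In Sfpq against the same Input libraries, 2 of 6 members rose, against 9.37% of all genes. None fell, while 56.5% of all genes fell, with a median of -0.94. ZFAS1 changed by 1.44 ± 0.37 (SE; limma adjusted p = 0.00287), a value that was 0.58 with a pseudocount of 5 and whose call ended without Sfpq replicate B (0.80). SNHG1, with 24.2% and 29.0% of its reads on the primary row in Sfpq, changed by 0.82 ± 0.31 (SE; limma adjusted p = 0.0271), a call that ended without Input replicate A (0.75) or B (0.90) or Sfpq replicate B (0.65). The other 4 members had changes of 0.71 (GAS5), 0.32 (SNHG7), 0.24 (SNHG3) and 0.05 (SNHG15), all above the median of all genes, and did not pass.

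Set directly against Sfpq, Brg1 had a lower primary-to-spliced ratio in 1 of 6 members and a higher one in none, where 2.26% of all genes were lower and 82.3% higher, with a median of 2.10. The member was SNHG1, at -1.26 ± 0.31 (SE; limma adjusted p = 0.00116), or -0.75 with a pseudocount of 5. Both Brg1 libraries of SNHG1 (14.4% and 10.4% of reads on the primary row) lay below both Sfpq libraries (24.2% and 29.0%). ZFAS1 (0.13), GAS5 (-0.02), SNHG3 (0.41), SNHG15 (0.32) and SNHG7 (-0.32) did not pass, and their groups overlapped.

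In LNCaP Brg1 against Input, 0 of 6 members passed in limma or edgeR, and 1 did so at an unadjusted p under 0.05, against 13.2% of 7993 genes that rose and a median of 0.31. That member was again ZFAS1, at 1.15 ± 0.43 (SE; limma adjusted p = 0.0543), with values of 1.80 without Brg1 replicate A, which passed, and 0.50 without Brg1 replicate B. The other 5 members had changes from -0.42 (SNHG15) to 0.53 (SNHG1), and their groups overlapped. With IgG in place of Input or of Brg1, 0 of 6 members passed in any ratio contrast by limma or edgeR. Of all genes, 0.752% passed for 22Rv1 IgG against Input, 1.02% for 22Rv1 Brg1 against IgG, 13.8% for LNCaP IgG against Input and 13.1% for LNCaP Brg1 against IgG. At an unadjusted p under 0.05, the members that passed in these contrasts numbered 0, 0, 3 and 1, in the same order. Of the 3, SNHG1 had no LNCaP IgG read on either row and SNHG3 had 1, so these values rest on the pseudocount.

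**Figure D5:**
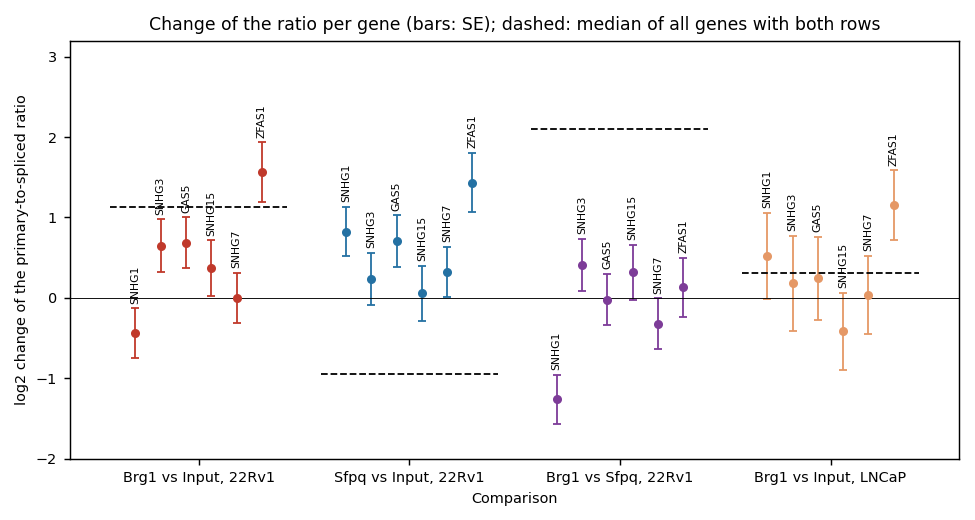
Log2 change of the primary-to-spliced ratio for each of the 6 members with both rows (points, with the SE from limma as bars) in 4 contrasts; dashed lines are the median of all genes with both rows. In Brg1 against Sfpq all 6 members lie below the median of 2.10, and SNHG1 lies at -1.26.

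With all 22Rv1 IgG libraries in the fit, no gene of the table passed in the ratio contrasts of Brg1 and Sfpq with Input and with each other, members included. The changes themselves were as given above. The share of reads on primary rows over all genes differed between these groups as given above, and its part in the members' values was not tested.

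Other snoRNA hosts were read from lists chosen with earlier results of these data known. Of 18 further noncoding hosts, 9 had a plain row in 22Rv1, of which 7 fell in Brg1 (median log2 change -1.24), near the 74.0% of all plain rows, and 8 fell in Sfpq (median -1.12), beside 20.1% of all plain rows. In LNCaP 14 had a plain row and 8 fell in Brg1 (median -1.08), beside 20.1% of all plain rows there. Their ratio rose in 4 of 5 genes in 22Rv1 Brg1 against Input, where 65.8% of all genes rose, led by LRRC75A-AS1 at 3.41 (limma adjusted p = 4.48e-07) and SNHG16 at 2.19 (limma adjusted p = 1.29e-05). LRRC75A-AS1, also named SNHG29, was the gene of this list with the highest ratio change in Sfpq (3.04) and in LNCaP Brg1 (2.11) too. SNHG16 also had a ratio 2.48 higher in Brg1 than in Sfpq (limma adjusted p = 1.07e-06).

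Protein-coding hosts, most of them ribosomal protein and translation factor genes, had plain rows for all 34 genes. In 22Rv1, 31 fell in Brg1 (median -1.59), beside 74.0% of all plain rows, and 24 fell and 4 rose in Sfpq (median -1.70), beside 20.1% of all plain rows that fell. In LNCaP Brg1, 19 fell (median -0.71), beside 20.1%. Their ratio rose in 12 of 29 genes in 22Rv1 Brg1 (median 0.73), a smaller share than the 65.8% of all genes, with RPL27A at 2.26 and RPS12 at 2.19. In Sfpq it rose in 7 and fell in 6 (median 0.30), beside 9.37% of all genes that rose and 56.5% that fell. In Sfpq, RPS12 (2.6) and RPL12 (2.48), both of the ribosome, had the highest ratio changes of the list, and WDR43 (-2.45), a factor of small-subunit processing, and EIF4A2 (-1.75), a translation initiation helicase, the lowest.

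Genes that act on the products of these hosts were read as further lists. Of 17 genes for snoRNP proteins and their assembly factors, 11 plain rows fell in 22Rv1 Brg1 (median -0.59), a smaller share than the 74.0% of all plain rows. In Sfpq 5 rose and 7 fell (median 0.07), beside 4113 of all 10855 plain rows that rose and 2184 that fell. Of 14 genes for nonsense-mediated decay factors, 8 plain rows fell in Brg1 (median -0.54), again a smaller share than 74.0%, and 8 rose and 1 fell in Sfpq (median 0.46). In the ratio of Sfpq to Input, 10 of 15 snoRNP genes fell, with NOLC1 at -2.64 and GAR1 at -2.40, and 9 of 12 decay genes fell, with SMG1 at -2.38 and UPF2 at -2.35, beside 56.5% of all genes. NHP2, a core protein of box H/ACA particles, rose by 2.03 in that contrast. NOP56 and DKC1 are in both the snoRNP list and the list of protein-coding hosts, so these lists are not separate. No test set these lists against the members.

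SNORA73A and SNORA73B, the snoRNAs inside SNHG3, have rows of their own in both tables, which were looked at after the tables were seen. In 22Rv1, SNORA73A was at 7.33 and 6.05 RPM in Input, 6.04 and 6.56 RPM in Brg1, and 1.68 and 0.816 RPM in Sfpq. SNORA73B was at 9.84 and 8.60 RPM in Input, 3.58 and 3.38 RPM in Brg1, and 1.26 and 0.952 RPM in Sfpq. The Sfpq values rest on 12 and 6 reads of SNORA73A and on 9 and 7 reads of SNORA73B. In IgG A, B and C, SNORA73A was at 32.5, 0.571 and 0 RPM, from 144, 1 and 0 reads, and SNORA73B at 0, 1.14 and 8.15 RPM, from 0, 2 and 4 reads. IgG A thus had a higher SNORA73A share than both 22Rv1 Input libraries. Both snoRNA rows were lower in Sfpq than in Input and Brg1, as SNHG3.primary was, and in Brg1 the SNORA73A values overlapped Input. In LNCaP, SNORA73A was at 8.93 and 10.7 RPM in Input and 4.4 and 7.94 RPM in Brg1, and SNORA73B at 9.07 and 10.8 RPM in Input and 9.11 and 8.66 RPM in Brg1. How reads that fall on both a snoRNA and its host intron were assigned is not given in the sources used here.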

How the data were processed

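RNA immunoprecipitation libraries of 22Rv1 and LNCaP were read from 1 deposited table per line. The values are a signal that the authors made from counts with a scaling factor per library. Per the submitters' processing notes, STAR 2.6, Salmon 0.8.2, deepTools 2.5.2, DESeq2 and hg38 were used, with no role given. The use of strand and the suffix .primary are not explained in the sources used here. Per the labels' protocols, the library kit was stranded and ERCC spike-ins were added.

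Dividing each column by its smallest positive value gave whole numbers for 100.0% of values within 0.001 read, and these recovered reads set depth. All columns were mapped. Shares are reads per 1000000 (RPM). The main test was limma 3.58.1 (R 4.3.3, eBayes with trend) on log2(RPM + 0.5), over rows with a mean of at least 1 RPM, with Benjamini-Hochberg adjustment over all rows and calls at an adjusted p under 0.05. Brg1, Sfpq and Input of a line shared a fit, and IgG entered only contrasts naming it. The ratio contrasts used log2 of (primary RPM + 0.5)/(plain RPM + 0.5) in genes with both rows. edgeR 4.0.16 and DESeq2 1.42.0 were alternatives on the recovered reads, which the authors' values gave as whole reads. The fits were tested on simulated data. The floor is 3 reads.

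Members and lists were chosen with earlier results of these data known. Named genes were all members and, of each list, up to 2 genes per direction and contrast with the largest ratio change among those past the threshold whose groups did not overlap; those of contrasts with IgG are not named, since they rest on few reads.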

Additional observations from a re-analysis of the deposited data

Results flagged for a closer look

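The primary-to-spliced ratio of SNHG1 differed between the antibodies in 22Rv1: the change against Input was -0.44 in Brg1 and 0.82 in Sfpq, and the difference of the effects, which share the Input libraries, was -1.26 on the log2 scale. The difference itself was tested by the contrast of Brg1 with Sfpq (limma adjusted p = 0.00116), and both Brg1 libraries lay below both Sfpq libraries. The call ended with the IgG libraries in the fit (limma adjusted p = 0.391). The change in Brg1 against Input did not pass and was 0.024 with a pseudocount of 5, so its sign is not settled, and the call in Sfpq against Input ended in 4 alternatives.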

How the results depend on the processing

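Depth limits the comparisons with IgG, which has few reads, and most groups hold 2 libraries. No called member row changed sign under any alternative run for Brg1 or Sfpq against Input or against each other. The cause of the changes below was not tested. With the IgG libraries in the fit, 0 member rows passed in the Brg1 and Sfpq shares and ratios of 22Rv1, in Brg1 against Sfpq, and in the LNCaP Brg1 share.

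Replicate letters were not shown to pair the libraries: deviations of same-letter libraries from their group means correlated across rows at 0.0046 for 22Rv1 Brg1 and Input, -0.13 for Sfpq and Input, -0.04 for Brg1 and Sfpq, and -0.33 for LNCaP Brg1 and Input. With the replicate letter as a block, LNCaP Brg1 called 3 member rows in place of 10, and 22Rv1 IgG against Input 3 in place of 0; the block called 13 in place of 12 for 22Rv1 Brg1 and 12 in place of 13 for Sfpq. With the LNCaP letters crossed, chosen after seeing the data, the block called 14 rows and 1 ratio.

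The deposited scaling called 16 rows in LNCaP Brg1 and 15 in 22Rv1 IgG against Input. It moved the median change of all rows from -0.26 to -0.70 in 22Rv1 Brg1, from -0.19 to -0.72 in Sfpq and from -0.09 to -1.46 in LNCaP Brg1, and TMM scaling moved them to -0.03, -0.05 and -0.0011. For 22Rv1 IgG against Input, a pseudocount of 5, eBayes without trend and DESeq2 each called 3. For LNCaP IgG against Input, DESeq2 called 1 and edgeR 2 in place of 11.

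Ratio calls of members rose from 1 to 2 with only the 2 groups compared, to 3 with a pseudocount of 5 and to 2 in edgeR for 22Rv1 Brg1 against Input, from 2 to 4 with a pseudocount of 5 for Sfpq, from 1 to 2 with a pseudocount of 5 for Brg1 against Sfpq, and from 0 to 1 with a minimum mean of 5 RPM for LNCaP Brg1.

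Leaving out a library at a time gave 2 to 11 called rows in LNCaP Brg1, 0 to 6 in 22Rv1 IgG and 11 to 16 in LNCaP IgG against Input. For ratios it gave 1 to 2 in 22Rv1 Brg1, 1 to 3 in Sfpq, 0 to 1 in LNCaP Brg1, 1 to 2 in Brg1 against Sfpq, 0 to 3 in 22Rv1 IgG and in 22Rv1 Brg1 against IgG, 0 to 5 in LNCaP IgG and 0 to 4 in LNCaP Brg1 against IgG. A group left with a lone library is assumed to vary like the others.

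Values that changed sign were all of rows that did not pass. The share of ZFAS1.primary in 22Rv1 Brg1 was 0.21 under TMM scaling and in edgeR, 0.17 in DESeq2 and, leaving out a library at a time, from -0.051 to 0.0078 (without Brg1 replicate B). The ratio of SNHG7 in 22Rv1 Brg1 was 0.0034 with a pseudocount of 0.1 and that of SNHG1 0.024 with a pseudocount of 5. The others changed sign only when a library was left out, with these lowest and highest values. In 22Rv1 Brg1 against Input, SNHG7 ran from -0.27 to 0.27 and SNHG15 from -0.035 (without Input replicate B) to 0.77. In Sfpq, SNHG15 ran from -0.35 to 0.46 and SNHG3 from -0.11 to 0.59. In LNCaP Brg1, where Brg1 replicate B left out turned 4 ratios, GAS5 ran from -0.017 to 0.50, SNHG15 from -1.003 to 0.17, SNHG3 from -0.25 to 0.61 and SNHG7 from -0.30 to 0.38. In Brg1 against Sfpq, SNHG15 ran from -0.068 to 0.70, GAS5 from -0.42 to 0.37 and ZFAS1 from -0.51 to 0.77.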
